A study of Mus musculus with 9 samples.

Results

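Genes that mark neural stem cells were followed by name, and they were Prom1, Nes, Vim, Msi1, Msi2, Fut4, Cd24a and Lrp2. They are 8 of the 38197 gene symbols in the deposited tables, and all 8 passed the filter on low counts and were among the 14742 genes tested. Wild-type mouse ESCs of strain 129 were differentiated with SAG, an agonist of the Shh receptor component Smo, and retinoic acid, both present from 0 to 3 days in differentiation conditions (DDC). NSCs were then collected on magnetic beads against prominin-1, the protein encoded by Prom1, at 4.5DDC, 5.5DDC and 6.5DDC, with 3 libraries per time point and 9 in all. All groups share the cell background, the treatment and the sort, and differ in the time of collection, which the labels also give as 4, 5 and 6 days. Nothing in the labels says whether the libraries of a time point came from separate cultures, so the p-values measure the spread between these libraries. Levels are the authors' FPKM (fragments mapped, scaled to transcript length and to the size of the library), which allow genes to be set side by side. The first interval runs from 4.5DDC to 5.5DDC, the second interval to 6.5DDC, and the whole span covers both. Changes are log2 fold changes of the counts with their standard error (SE), and a gene is said to be called when its adjusted p is under 0.05 in the quasi-likelihood test of edgeR, with Benjamini-Hochberg adjustment over all 14742 genes.

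In the neural tube, NSCs form an epithelium whose apical membrane faces the lumen and whose processes span the wall. Prominin-1 sits in protrusions of that apical membrane, nestin and vimentin are the intermediate filament proteins of the processes, and Musashi proteins bind mRNA in the cytoplasm of dividing progenitors. Surface antigens used to enrich such cells include prominin-1 itself, the Lewis X glycan that fucosyltransferases such as Fut4 can make, and the glycoprotein CD24. Megalin, the product of Lrp2, is a large endocytic receptor of the apical membrane that is known for a role in Shh signaling in the forebrain.

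Prom1 rose over the whole span, and no other gene of the 8 was called by the edgeR test of all 9 libraries in any of the 3 comparisons. Calls numbered 0 of 8 genes over the first interval, where 0.0746% of all genes tested were called, 0 of 8 over the second interval, where 0.224% were called, and 1 of 8 over the whole span, where 18.7% were called, 9.21% as higher and 9.53% as lower. The shares of the intervals depended on single libraries. With each left out in turn, 1 to 28 genes of all those tested were called over the first interval, against 11 with all 9. Over the second interval 0 to 196 were called, against 33. With an unadjusted p under 0.05 the test of all 9 libraries held 0, 2 and 2 of the 8 genes over the first interval, the second interval and the whole span, beside 15.4%, 18.5% and 35.4% of all genes. DESeq2 called 0, 2 and 2, beside 3.36%, 4.49% and 24.9% of all genes. With the replicate number as a block, 0, 0 and 2 of the 8 genes were called, the latter Prom1 and Lrp2, beside 1.44%, 1.32% and 23.2% of all genes. The median log2 fold change of the 8 genes was −0.00 over the first interval, −0.06 over the second interval and 0.03 over the whole span, beside 0.01, 0.02 and 0.00 for all genes tested. Over the whole span 4 of the 8 fitted changes were positive and 4 were negative, and the 8 genes were not tested as a group. A change that differed between the 2 intervals was called for 0 of the 8 genes and for 0 genes of all those tested (quasi-likelihood test of edgeR, smallest adjusted p = 0.76, 701 genes with an unadjusted p under 0.05).

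**Figure D1:**
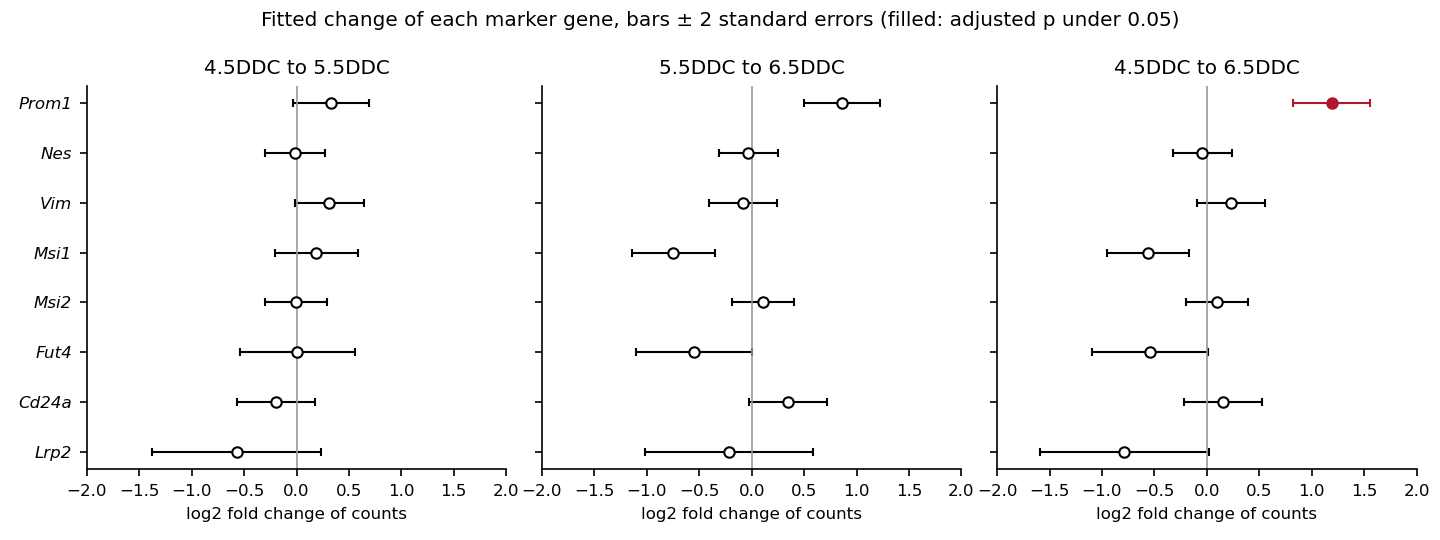
Log2 fold change of the counts for each of the 8 genes (horizontal axis) in the 3 comparisons, with bars of ± 2 standard errors from the fit to 9 libraries. The filled point is Prom1 over the whole span at 1.19, the only call. The bar of Prom1 also lies above 0 over the second interval, from 0.50 to 1.22. Those of Msi1 lie below 0 over the second interval and over the whole span.

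On the FPKM scale the mean levels of the 8 genes ranged from 0.599 to 1791. Vim was the highest with a mean of 1791 FPKM over the 9 libraries and ranked 14 among the genes tested. It was followed by Cd24a with 319.99 FPKM (rank 210), Nes with 157 FPKM (rank 540), Msi1 with 142 FPKM (rank 620) and Prom1 with 122 FPKM (rank 751). Below them came Msi2 with 52.5 FPKM (rank 2127), Lrp2 with between 4.14 and 12.1 FPKM (rank 9401) and Fut4 with 0.599 FPKM (rank 13607). Most neighbours in this order did not overlap in any library, but Nes and Msi1 overlapped, as did Msi1 and Prom1. The place of Prom1 in the order depended on the time point. At 4.5DDC each of its libraries lay below those of Nes and Msi1, whereas at 6.5DDC each lay above those of Msi1 and its range of 154 to 207 FPKM overlapped that of Nes, 138 to 165 FPKM.

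**Figure D2:**
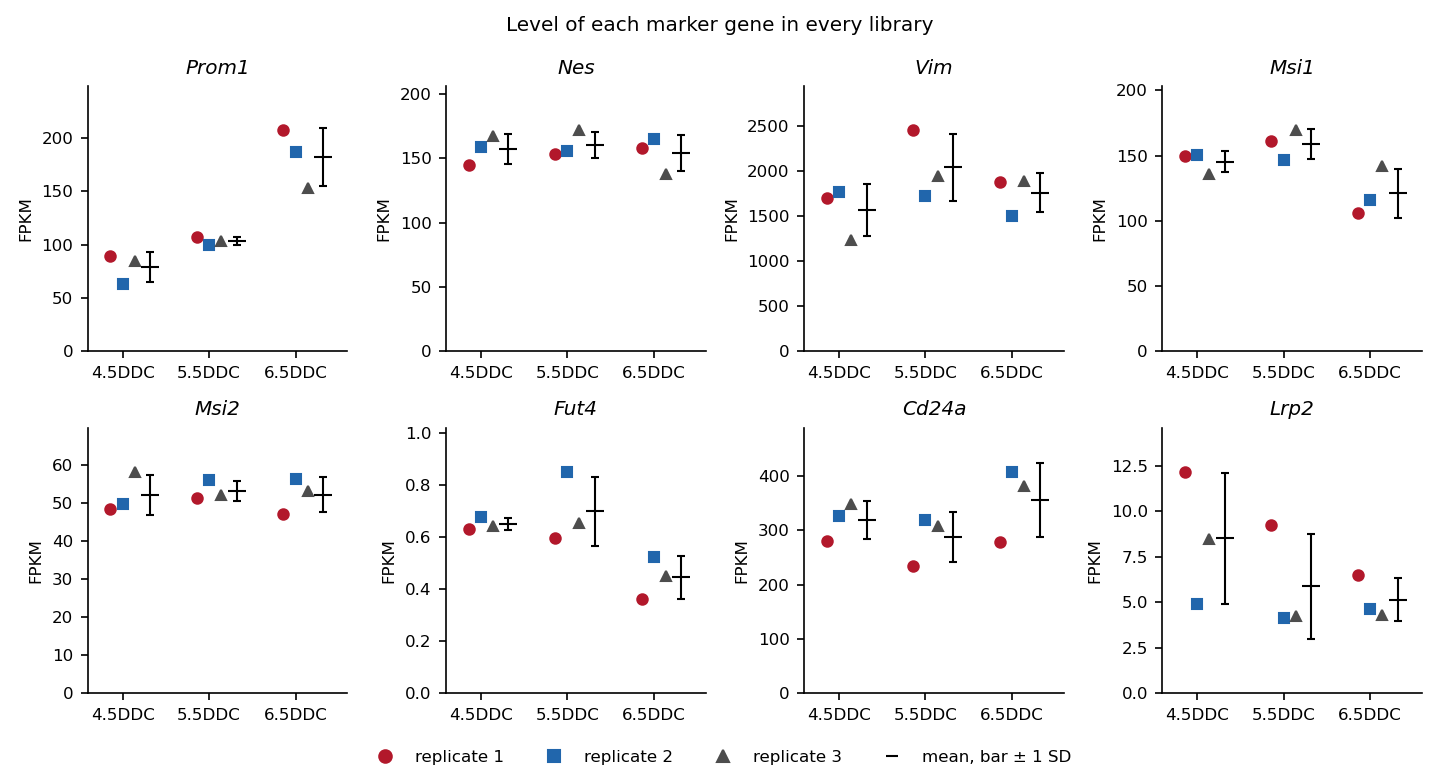
FPKM of each of the 8 genes (vertical axes from 0) in the 3 libraries of each time point, with a mark for each replicate and the mean ± 1 SD beside them. Of the 8 genes only Prom1 has libraries that separate at every step, from between 62.8 and 89.3 FPKM at 4.5DDC to between 154 and 207 FPKM at 6.5DDC. Of all genes tested, 23.8% separated in either direction over the first interval and 24.0% over the second, and the share at both was not counted. Replicate 1 is the highest library of Lrp2 and the lowest of Cd24a at each time point.

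Prom1 encodes prominin-1, the pentaspan membrane protein against which the beads were directed. The gene occupies bases 43993620 to 44102032 of chromosome 5 (GRCm38, minus strand). Its level was 89.3, 62.8 and 85.2 FPKM in replicates 1, 2 and 3 of 4.5DDC, 107, 99.9 and 104 FPKM at 5.5DDC and 207, 187 and 154 FPKM at 6.5DDC. Every library of a later time point was higher than every library of an earlier one, and the means were 79.1 ± 14.3, 104 ± 3.72 and 183 ± 27.2 FPKM (SD, n = 3). Such a separation in either direction was seen for 23.8% of all genes tested over the first interval, 24.0% over the second interval and 34.5% over the whole span. These levels rest on 3234 to 14143 counts per library. Over the whole span Prom1 rose 2.28-fold, with a log2 fold change of 1.19 (SE 0.18, adjusted p = 0.00363). By the size of its fitted rise, Prom1 ranked 1084 among all genes tested.

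Most of the rise of Prom1 fell in the second interval, although neither interval alone was called. Its log2 fold change was 0.33 over the first interval (SE 0.18, adjusted p = 0.413) and 0.86 over the second interval (SE 0.18, adjusted p = 0.0885). The first value became 0.17 without replicate 2 of 4.5DDC and lay between 0.30 and 0.42 with any other single library left out. The second change exceeded the first by 0.53 (SE 0.32, adjusted p = 0.76), which did not pass the threshold. The step over the second interval was called by DESeq2 (adjusted p = 0.00188) and with a term that sets replicate 1 apart from replicates 2 and 3 (adjusted p = 0.0231, in a fit that called 4.30% of all genes), among alternatives with an adjusted p of up to 0.356. Since every later library of Prom1 was above every earlier one, a rise within each replicate number follows under any matching of libraries and adds no support. Over the whole span its log2 fold change was 1.26 within replicate 1 and 1.16 within replicates 2 and 3. The cells were selected for the product of the gene whose RNA is measured here, and the part of the selection in the level or its change was not tested, since unsorted cells were not analysed here. In RNA from a sorted population, a change in the share of cells that express a gene and a change in its RNA per cell cannot be told apart.

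A non-coding gene, Gm16401, overlaps 5.91% of the exonic bases of Prom1 on the opposite strand, and the sources used here do not say whether the strand of the reads was used in counting. Gm16401 held between 7 and 28 counts per library, against at least 3234 for Prom1. No other gene of the 8 overlapped an exon of a gene on the opposite strand in GENCODE M21. The prominin paralogue Prom2 stayed at or below 0.0172 FPKM in every library and was not tested, and its transcripts shared no exact run longer than 14 bases with those of Prom1.

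The genes whose log2 CPM (counts relative to each library's total after TMM scaling) followed Prom1 most closely over the 9 libraries were Lmbr1 (r = 0.992), Ahi1 (r = 0.990), Itfg1 (r = 0.990), Atg12 (r = 0.988) and Adam10 (r = 0.985). The libraries share time points and, in part, replicate numbers, so these coefficients are a description. Of the other 7 genes, Fut4 (r = −0.84) and Msi1 (r = −0.80) ran most opposite to Prom1, and Msi2 (r = 0.41) was the most alike.

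Prom1 was set beside other surface proteins that are used to sort neural cells. Of the 12 such genes tested, 5 rose over the whole span, 0 fell and 7 did not pass the test, with a median log2 fold change of 0.72. Over that span 9.21% of all genes tested rose and 9.53% fell, and the counts of every list that follows stand beside these shares. Alcam, which encodes a cell adhesion molecule, went from 43.0 ± 12.5 FPKM at 4.5DDC to 193 ± 65.5 FPKM at 6.5DDC (SD, n = 3), with a log2 fold change of 2.19 (SE 0.28, adjusted p = 0.00182). Cd44, which encodes the hyaluronan receptor, rose by 1.59 (SE 0.18, adjusted p = 0.00125), from 5.38 ± 0.647 to 16.7 ± 2.52 FPKM. Ncam1, which encodes the neural cell adhesion molecule, rose by 1.25 (adjusted p = 0.0108), and Itga6, an integrin subunit gene, rose by 0.81 (adjusted p = 0.0377). The summed level of the 14 genes of the list was 622, 548 and 568 FPKM in replicates 1, 2 and 3 of 4.5DDC, 819, 742 and 782 FPKM at 5.5DDC and 1072, 916 and 911 FPKM at 6.5DDC. As with Prom1, the libraries of the 3 time points did not overlap.

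Prom1 was also set beside genes of the apical membrane. Of 16 tested, 2 rose, 2 fell and 12 did not pass the test over the whole span, with a median log2 fold change of −0.13. Crb1, which encodes an apical polarity protein, rose by 1.57 (SE 0.37, adjusted p = 0.0182), and Cdh2, which encodes N-cadherin of the adherens junctions, rose by 0.64 (SE 0.17, adjusted p = 0.0325). Ctnna1, the gene of alpha-catenin, which links cadherins to actin, fell by 0.55 (adjusted p = 0.0417), and Mllt4, the gene of the junction protein afadin, fell by 0.43 (adjusted p = 0.0454).

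Nes and Vim encode the intermediate filament proteins nestin and vimentin. Nes occupies bases 87971078 to 87980451 of chromosome 3 (plus strand). It had 145, 159 and 167 FPKM in replicates 1, 2 and 3 of 4.5DDC, 153, 156 and 172 FPKM at 5.5DDC and 158, 165 and 138 FPKM at 6.5DDC. All 3 time points overlapped, and the lowest and the highest of the 9 differed 1.24-fold. The log2 fold change of Nes was −0.01 over the first interval (adjusted p = 0.974), −0.03 over the second interval (adjusted p = 0.923) and −0.05 over the whole span (SE 0.14, adjusted p = 0.845). An interval of 2 standard errors around the last value runs from −0.33 to 0.24.

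Vim, at bases 13573927 to 13582826 of chromosome 2 (plus strand), had 1706, 1764 and 1235 FPKM in replicates 1, 2 and 3 of 4.5DDC. At 5.5DDC it had 2455, 1728 and 1949.6 FPKM, and at 6.5DDC 1885, 1508 and 1890.0 FPKM. Every pair of time points overlapped, and the spread within a time point was wide, with a coefficient of variation of 18.5% at 4.5DDC. The log2 fold change was 0.31 over the first interval (SE 0.16, adjusted p = 0.388), −0.09 over the second (adjusted p = 0.801) and 0.23 over the whole span (SE 0.16, adjusted p = 0.343). Single libraries left out moved the first value between 0.16 (without replicate 1 of 5.5DDC) and 0.40 and the last between 0.14 (without replicate 1 of 6.5DDC or replicate 3 of 4.5DDC) and 0.29. Longest exact runs shared by Vim transcripts with those of the related filament genes Des, Ina and Gfap were 18, 17 and 20 bases.

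Of 11 other intermediate filament genes tested, 0 rose and 2 fell over the whole span, and 9 did not pass the test. Both genes that fell encode lamins, which line the nucleus rather than the cytoplasm. Lmnb1 went from 167 ± 24.3 to 72.5 ± 0.723 FPKM (SD, n = 3) and fell by 1.21 in log2 units (SE 0.16, adjusted p = 0.00209), and Lmnb2 fell by 1.59 (SE 0.27, adjusted p = 0.00542). Synm, which encodes a filament partner of nestin and vimentin, had a log2 fold change of −0.30 (adjusted p = 0.494), and Plec, which encodes the filament linker plectin, one of −0.41 (adjusted p = 0.416).

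Msi1 and Msi2 encode the RNA-binding proteins Musashi-1 and Musashi-2. Msi1 occupies bases 115429599 to 115455698 of chromosome 5 (plus strand) and Msi2 bases 88339382 to 88718513 of chromosome 11 (minus strand). Their coding sequences are alike, and the longest exact run that their transcripts share, 44 bases, is shown because it bears on how reads were assigned to each gene. The run is printed in capitals between 10 lower-case bases on each side, from the GENCODE M21 transcripts on GRCm38, and all 64 bases are coding in both genes. In Msi1 these 64 bases are split over 2 exons, at chr5:115438715-115438761 and chr5:115440485-115440501 on the plus strand.
Msi1: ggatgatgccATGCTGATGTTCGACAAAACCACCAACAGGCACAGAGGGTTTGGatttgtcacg
In Msi2 the 64 printed bases are split likewise, at chr11:88480006-88480052 and chr11:88413974-88413990 on the minus strand.
Msi2: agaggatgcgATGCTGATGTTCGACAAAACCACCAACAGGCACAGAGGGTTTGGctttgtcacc
The run is shorter than the single-end reads that the study's methods describe, so a read that covers it also covers bases outside it. How reads with mismatches were divided between the 2 genes was not examined.

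Msi1 had 150.1, 150.3 and 136 FPKM in replicates 1, 2 and 3 of 4.5DDC, 161, 147 and 169.5 FPKM at 5.5DDC and 106, 116 and 142 FPKM at 6.5DDC. All 3 libraries of 6.5DDC were lower than those of 5.5DDC, while replicate 3 of 6.5DDC lay within the range of 4.5DDC. In the counts its log2 fold change was 0.19 over the first interval (adjusted p = 0.697), −0.75 over the second interval (SE 0.20, adjusted p = 0.136) and −0.56 over the whole span (SE 0.20, adjusted p = 0.074). None of these was called, and the first ranged from 0.04 (without replicate 3 of 4.5DDC) to 0.30 with single libraries left out. The second change minus the first was −0.94 (SE 0.33, adjusted p = 0.76).

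The size of this difference depended on the deposited scale. In CPM, Msi1 had 270.0, 297 and 203 in replicates 1, 2 and 3 of 4.5DDC, 335, 258 and 284 at 5.5DDC and 154, 149.8 and 218 at 6.5DDC. The FPKM obtained per CPM varied 1.61-fold between libraries for Msi1, from 0.482 to 0.774, and was higher at 6.5DDC than in all 5.5DDC libraries. For Prom1, Nes, Msi2, Fut4 and Cd24a this ratio varied at most 1.17-fold, and it varied 1.21-fold for Vim and 1.36-fold for Lrp2. As a result the log2 ratio of the mean FPKM over the second interval was −0.39, smaller in size than that of the mean CPM, −0.75, and over the whole span the 2 values were −0.26 and −0.56. Among the alternatives, the whole-span change was called by DESeq2 (adjusted p = 0.0492) and when replicate 3 of 4.5DDC (0.0459) or of 6.5DDC (0.0362) was left out, where 13.4% and 13.9% of all genes were called, with an adjusted p of up to 0.224 in the others.

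**Figure D3:**
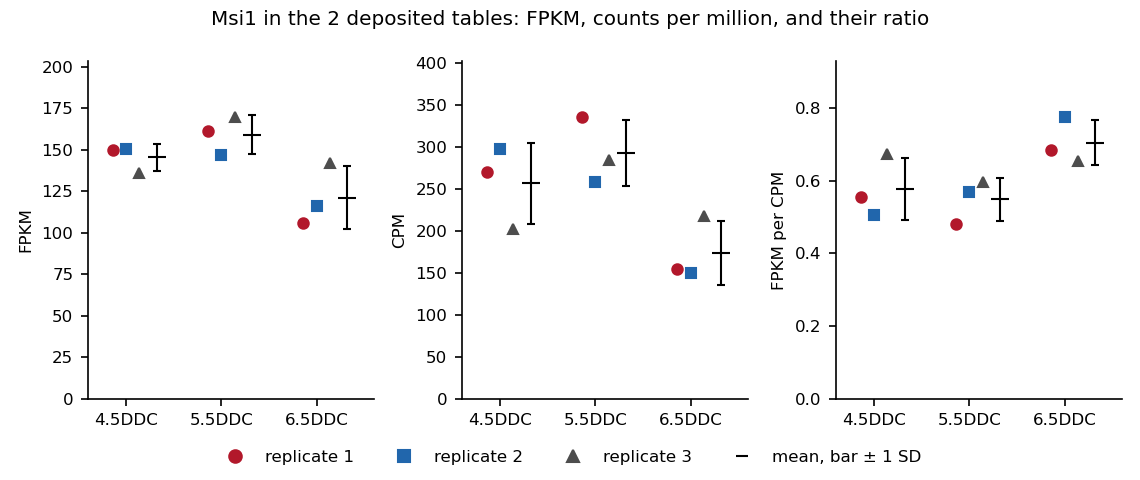
Msi1 in each library as FPKM (left), as CPM from the counts (middle) and as the ratio of the 2 (right), with the mean ± 1 SD beside the libraries of each time point. The drop at 6.5DDC is larger in CPM, and the ratio at 6.5DDC lies between 0.653 and 0.774, above the 0.482 to 0.597 of 5.5DDC.

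Msi2 had 48.5, 49.8 and 58.1 FPKM in replicates 1, 2 and 3 of 4.5DDC, 51.4, 56.2 and 52.0 FPKM at 5.5DDC and 47.1, 56.3 and 53.3 FPKM at 6.5DDC. Its libraries overlapped at every time point, with a highest value 1.23 times the lowest. The log2 fold change over the whole span was 0.10 (SE 0.15, adjusted p = 0.666), and those of the shorter intervals were −0.01 and 0.11. With single libraries left out the whole-span value lay between 0.01 (without replicate 2 of 6.5DDC) and 0.25 (without replicate 3 of 4.5DDC). The value of the second interval then lay between 0.015 and 0.161. On the FPKM scale Msi1 was the higher of the 2 genes in each of the 9 libraries.

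Among 13 genes, which are those of other RNA-binding proteins and of Numb and its relative Numbl, 0 rose and 3 fell over the whole span. The largest fall was that of Lin28a, an inhibitor of let-7 maturation, with a log2 fold change of −3.51 (SE 0.18, adjusted p = 4.84e-05), from 28.4 ± 3.72 to 2.61 ± 0.285 FPKM (SD, n = 3). Lin28b fell by 1.72 (SE 0.25, adjusted p = 0.00279), and Ptbp1, which encodes a splicing regulator, fell by 1.18 (SE 0.22, adjusted p = 0.00737). Numb, the best known target of Musashi, had 16.1 ± 4.17 FPKM at 4.5DDC and 18.0 ± 0.315 FPKM at 6.5DDC, with a log2 fold change of 0.12 (adjusted p = 0.629).

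The glycan-related marker gene was close to the lower limit of what was tested. Fut4 encodes a fucosyltransferase that can complete the Lewis X structure, and occupies bases 14748320 to 14752393 of chromosome 9 (minus strand). It had 0.630, 0.678 and 0.644 FPKM in replicates 1, 2 and 3 of 4.5DDC, 0.596, 0.849 and 0.653 FPKM at 5.5DDC and 0.361, 0.524 and 0.451 FPKM at 6.5DDC. Each 6.5DDC library was lower than all 6 earlier ones. These values rest on 22 to 72 counts per library, against a floor of 3 counts. Its log2 fold change was 0.01 over the first interval (SE 0.27, adjusted p = 0.995), −0.55 over the second (SE 0.28, adjusted p = 0.315) and −0.54 over the whole span (SE 0.28, adjusted p = 0.191). None of 21 alternatives called it in any comparison.

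Of 10 other genes of fucose transfer and the Lewis X pathway that were tested, 1 rose, 1 fell and 8 did not pass the test over the whole span. Fut11, another fucosyltransferase gene, rose by 0.67 (SE 0.15, adjusted p = 0.0154). Gmds, whose enzyme takes the first step of GDP-fucose synthesis, fell by 0.94 (SE 0.27, adjusted p = 0.0372). Fut9, which makes Lewis X in the nervous system, stayed between 0.0622 and 0.311 FPKM, with a log2 fold change of 0.04 (SE 0.50, adjusted p = 0.96). In every library both Fut4 and Fut9 were thus below 1 FPKM, and the glycan itself was not measured.

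Cd24a encodes a small glycoprotein that is anchored to the membrane by a lipid and is found on young neurons as well as on progenitors. It occupies bases 43578284 to 43584265 of chromosome 10 (plus strand). Its level was 280.1, 326 and 348 FPKM in replicates 1, 2 and 3 of 4.5DDC, 234, 319 and 307 FPKM at 5.5DDC and 279, 406 and 381 FPKM at 6.5DDC. Replicate 1 was the lowest library of each time point, and the time points overlapped. The log2 fold change was −0.20 over the first interval (adjusted p = 0.667), 0.35 over the second (adjusted p = 0.338) and 0.15 over the whole span (SE 0.19, adjusted p = 0.596). These values depended on single libraries, and with each left out in turn they ranged from −0.30 to −0.07, from 0.22 to 0.49 and from 0.02 to 0.29. The smallest sizes of the first and second came without replicate 1 of 5.5DDC and that of the third without replicate 2 of 6.5DDC. The log2 CPM of Cd24a was most like that of Fnbp1l (r = 0.985) and Lrp12 (r = 0.979) over the 9 libraries, and among the 8 genes it was most like that of Msi2 (r = 0.76).

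Lrp2 encodes megalin and occupies bases 69424340 to 69586065 of chromosome 2 (minus strand). It had 12.1, 4.92 and 8.45 FPKM in replicates 1, 2 and 3 of 4.5DDC, 9.22, 4.14 and 4.26 FPKM at 5.5DDC and 6.47, 4.63 and 4.29 FPKM at 6.5DDC. Replicate 1 was the highest library at each time point, and the time points overlapped. At 5.5DDC the coefficient of variation reached 49.3%, the widest of any of the 8 genes at any time point. The log2 fold change was −0.57 over the first interval (SE 0.40, adjusted p = 0.537), −0.22 over the second (adjusted p = 0.799) and −0.79 over the whole span (SE 0.40, adjusted p = 0.193). With single libraries left out, the first value lay between −1.03 (without replicate 1 of 5.5DDC) and −0.22 (without replicate 1 of 4.5DDC) and the last between −1.09 (without replicate 1 of 6.5DDC) and −0.43 (without replicate 1 of 4.5DDC). Within replicate 1 the whole-span value was −0.84 and within replicates 2 and 3 it was −0.70. A block for the replicate number gave a call (log2 fold change −0.75, adjusted p = 0.0372), and so did the term that sets replicate 1 apart (log2 fold change −0.77, adjusted p = 0.0182, in a fit that called 29.7% of all genes), among alternatives with an adjusted p of up to 0.495.

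Of 17 other genes of the LDL receptor family and partners of megalin that were tested, 2 rose, 1 fell and 14 did not pass the test. Myo6, which encodes a motor protein of endocytic vesicles, rose by 0.88 (SE 0.22, adjusted p = 0.022), and Lrp1b, a family member named here because it completes this count, rose by 2.92 (SE 0.72, adjusted p = 0.0223) at levels near the floor, from 0.0226 ± 0.0282 to 0.274 ± 0.0965 FPKM (SD, n = 3) and with 0 to 21 counts per library. Lrp5, which encodes a Wnt co-receptor, fell by 1.05 (SE 0.29, adjusted p = 0.0321). Lrpap1, the gene of the chaperone of these receptors, went from 71.5 ± 27.8 to 101 ± 25.3 FPKM (SD, n = 3) and did not pass the test (log2 fold change 0.67, adjusted p = 0.0653).

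Replicate 1 stood apart from replicates 2 and 3 for several of the 8 genes. In log2 CPM, Lrp2 was higher in replicate 1 than in the mean of the other two by 0.93 at 4.5DDC, 1.08 at 5.5DDC and 0.79 at 6.5DDC. Cd24a was lower in replicate 1, with differences of −0.32, −0.42 and −0.45, and Msi2 and Fut4 were also lowest there at each time point. Prom1 was higher in replicate 1 than in that mean by 0.24, 0.09 and 0.34. What the libraries of one replicate number share is not stated in the labels. A fit of the 6 libraries of replicates 2 and 3, added after seeing the data, called the same single gene over the whole span, Prom1, with a log2 fold change of 1.14 (adjusted p = 0.00592), and 0 of the 8 genes in either interval. That fit called 3.31% and 4.97% of all genes in the intervals and 31.3% over the whole span.

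**Figure D4:**
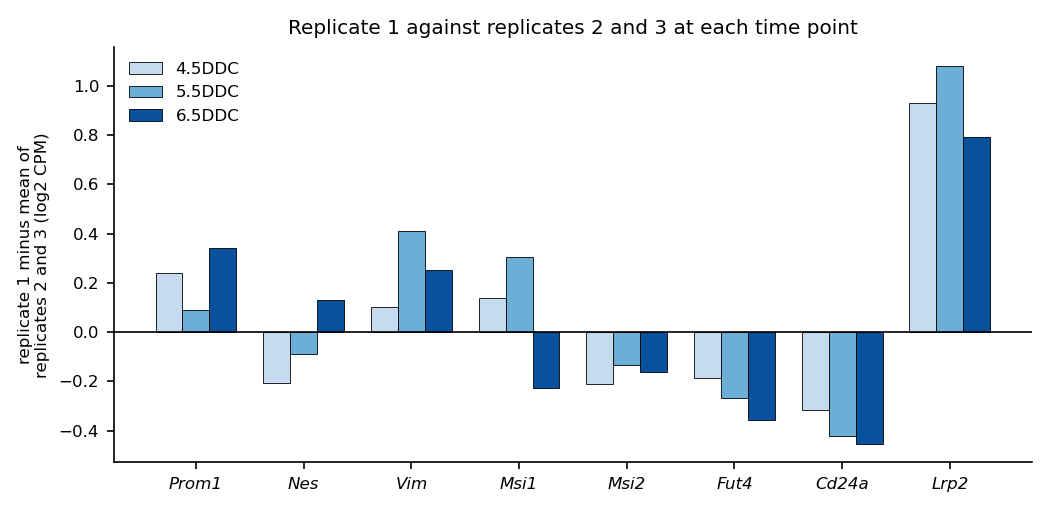
Log2 CPM of replicate 1 minus the mean of replicates 2 and 3 for each of the 8 genes at the 3 time points (bars from 0). Lrp2 is higher in replicate 1 by 0.79 to 1.08 and Cd24a lower at all time points, while the differences of Nes and Msi1 change sign between time points.

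The labelled cell type was checked against its own markers and those of other cells. Sox1 and Sox2, transcription factor genes of neural progenitors, had 10.2 to 14.7 FPKM and 78.2 to 96.0 FPKM over the 9 libraries and were not called over the whole span (adjusted p = 0.322 and 0.653). Nkx2-2, which marks the ventral progenitor domain, lay between 7.28 and 18.8 FPKM. Of 12 progenitor transcription factor and signaling genes, 3 fell and 0 rose, among them Sox3, which fell by 1.80 in log2 units (SE 0.49, adjusted p = 0.033), and Nkx6-1, which fell by 1.14 (SE 0.28, adjusted p = 0.022). The pluripotency genes Pou5f1 and Nanog stayed at or below 0.606 and 0.177 FPKM and were not tested.

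Radial glia genes moved over the same span as Prom1. Of 8 tested, 6 rose and 0 fell, beside 9.21% and 9.53% of all genes, with a median log2 fold change of 1.85. Slc1a3, which encodes a glutamate transporter of radial glia, rose by 1.74 (SE 0.18, adjusted p = 0.00102), Ptprz1, a receptor phosphatase gene, by 2.57 (SE 0.35, adjusted p = 0.00231), and the transcription factor gene Nfia by 1.96 (SE 0.23, adjusted p = 0.00151). Nes and Vim, the filament genes of the same processes, were not called. The summed level of the 11 genes of the list was lowest in replicate 1 at each time point, with 177, 324 and 762 FPKM, against 472 to 1039.7 FPKM in replicates 2 and 3. Most of that sum is Fabp7, a fatty acid binding protein gene of radial glia, with 142 to 911 FPKM.

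Floor plate and neuron genes were also present in the sorted cells. All 6 floor plate genes were tested and 5 of them rose over the whole span, with a summed level of 893, 582 and 584 FPKM in replicates 1, 2 and 3 of 4.5DDC, 1648, 1131 and 1139.7 FPKM at 5.5DDC and 1344, 1307 and 1432 FPKM at 6.5DDC. Spon1, which encodes an extracellular matrix protein of the floor plate, rose by 1.54 (SE 0.26, adjusted p = 0.00515). The sum did not overlap between 4.5DDC and the later time points, as for Prom1, but overlapped between 5.5DDC and 6.5DDC. Its part in the rise of Prom1 was not tested.

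Of 14 neuron genes tested, 2 rose and 0 fell, beside 9.21% and 9.53% of all genes. Map2, a gene of the dendritic cytoskeleton, rose by 1.65 (adjusted p = 0.00768) and Syt1, a gene of synaptic vesicles, by 3.19 (adjusted p = 0.00133), while Dcx and Elavl3 had log2 fold changes of 1.43 (adjusted p = 0.186) and 0.04 (adjusted p = 0.959). The summed level was 289.8, 785 and 528 FPKM in replicates 1, 2 and 3 of 4.5DDC, 239, 923 and 933 FPKM at 5.5DDC and 492, 1068 and 1131 FPKM at 6.5DDC. Replicate 1 was lowest at each time point, as for Cd24a, and the part of neurons in the level of Cd24a was not tested.

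**Figure D5:**
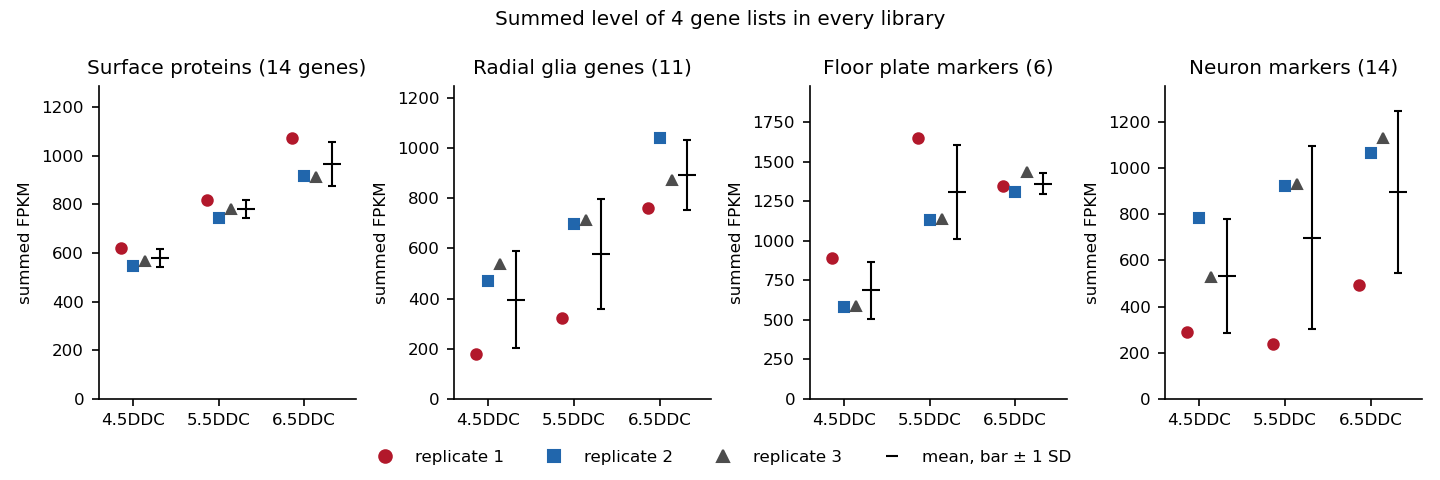
Summed FPKM of 4 gene lists in each library (vertical axes from 0), with the mean ± 1 SD beside the libraries of each time point. The surface protein list separates at every step, from at most 622 FPKM at 4.5DDC to at least 911 FPKM at 6.5DDC, and replicate 1 is the lowest library of the radial glia and neuron lists at each time point.

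Other lists were lower or showed few calls. The summed level of 10 pluripotency genes lay between 2.65 and 6.82 FPKM and that of 6 oligodendrocyte precursor genes between 1.17 and 13.2 FPKM, with 0 of 3 and 0 of 4 tested genes called. The 8 neural crest genes summed to between 9.59 and 20.9 FPKM, and 1 of 5 tested was called, Ets1, which fell by 0.61 (SE 0.18, adjusted p = 0.0398). Genes listed for endoderm summed to between 132 and 179 FPKM, with 0 of 6 tested genes called. That sum is mostly Cxcr4, which is also in the surface protein list, with 85.2 to 126 FPKM, and Foxa1, with 19.3 to 50.6 FPKM. Dab2 had 6.14 to 16.8 FPKM and Gata4 0.376 to 7.62 FPKM, and Sox17, Gata6, Afp and Ttr averaged under 1 FPKM at each time point. The 9 mesoderm and endothelial genes summed to between 22.5 and 80.0 FPKM, with Acta2 between 9.32 and 70.2 FPKM, and 2 of 8 tested were called, both higher. Ependymal genes summed to between 11.1 and 56.2 FPKM, with 1 of 4 tested called, Dnahc5, at or below 0.115 FPKM in every library. Ets1 and Dnahc5 are named because they complete these counts. Among defining genes, Sox10 of the neural crest and oligodendrocyte lineage stayed below 0.1 FPKM in every library.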

How the data were processed

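RNA of prominin-1-sorted NSCs was analysed at 3 time points with 3 libraries each, grouped by the sample labels. Reads were aligned by the authors with TopHat2 2.0.4 (GRCm38), and the counts they deposited came from HTSeq 0.6.1 and are not normalized. Values of 98 symbols were not whole, as in expected counts, although whole counts had been assumed when the test was chosen, and the deposited values were rounded. All 8 genes held whole counts. Deposited FPKM came from Cufflinks 2.1.1 and served as levels, with no test. The deposited log2 values, which the authors made with limma voom, were checked against the counts and not used further. The annotation release and the strand setting are not given in the sources used here.

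Python 3.11.15, pandas 2.3.3, numpy 2.4.6 and matplotlib 3.10.9 made tables and plots, and tests used DESeq2 1.42.0, limma 3.58.1 and edgeR 4.0.16 in R 4.3.3. After filterByExpr (14742 genes) and TMM, edgeR's quasi-likelihood fit took all 9 libraries with time as a factor (6 residual degrees of freedom, common dispersion 0.0733), with Benjamini-Hochberg adjustment over all genes tested. The procedure was tested on simulated data. Totals of 11066572 to 25506192 counts put the floor of 3 counts at 0.118 to 0.271 CPM before TMM scaling, for counting error only. The 8 genes and the 16 gene lists were chosen with earlier results of these data known. Genes named from a list are the up to 4 with a mean of at least 1 FPKM and the smallest p over the whole span, besides defining markers and paralogues. Genes alike were ranked by Pearson correlation of log2 CPM among genes that averaged 2 FPKM or more. Tubb3 had no match in the tables and was not analysed here. Alternatives were other scalings and filters, limma, DESeq2, log2(FPKM + 1) and log2(FPKM + 0.1), fits of the 6 libraries compared, a replicate block, a block for replicate 1, single libraries left out and, after seeing the data, replicates 2 and 3 alone.

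The replicate numbers come from the labels. Deviations from the time point mean correlated between libraries of the same number with r = 0.743, 0.386 and 0.452 for 4.5DDC with 5.5DDC and with 0.454, 0.367 and 0.197 for 5.5DDC with 6.5DDC. Each exceeded 0.1, the limit used for adjacent time points, whereas not all values for 4.5DDC with 6.5DDC did (r = 0.383, −0.040 and −0.215). Among replicates 2 and 3, libraries of different numbers correlated as closely (r = 0.291 and 0.390, then 0.225 and 0.405). These values therefore do not show that numbers 2 and 3 pair the libraries, and replicate 1 alone stood apart. The tests reported use time alone, and the block entered as an alternative in all comparisons.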

Additional observations from a re-analysis of the deposited data

How the results depend on the processing

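The rise of Prom1 over the whole span was called under all 21 alternatives, with a log2 fold change between 1.03 and 1.33 and an adjusted p between 1.58e-07 and 0.0185. The number of the 8 genes called over the whole span was 1 and became 2 under DESeq2 (with Msi1), with the replicate block (with Lrp2, log2 fold change −0.75, adjusted p = 0.0372) and with replicate 1 as its own block (with Lrp2), and lay between 1 and 2 with single libraries left out, where it was 2 without replicate 3 of 4.5DDC or of 6.5DDC (with Msi1). From 5.5DDC to 6.5DDC it was 0 and became 2 under DESeq2 (Prom1 and Msi1) and 1 with the block for replicate 1 (Prom1). Over that interval these fits called 662 and 634 genes of all those tested, against 33 in the test reported, and over the whole span DESeq2, the replicate block and the block for replicate 1 called 3674, 3418 and 4382, against 2763. The replicate block changed no call in either interval, where it left 0 of the 8 genes called. Msi1 fell by 1.12 from 5.5DDC to 6.5DDC within replicate 1 and by 0.58 within replicates 2 and 3. Causes of these differences were not tested.

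Changes of sign were limited to fitted values that were not called. From 4.5DDC to 5.5DDC, Nes was at 0.0192 with library totals, 0.0134 without a filter, 0.0175 with the CPM filter, 0.0199 with limma voom and 0.0302 and 0.0303 with log2(FPKM + 1) and log2(FPKM + 0.1). In the same order Msi2 was at 0.0293, 0.0214, 0.0255, 0.0346, 0.0315 and 0.0321, and Fut4 was at −0.0020 with the replicate block. Msi2 was at −0.0282 and −0.0288 from 5.5DDC to 6.5DDC, and its second change minus the first at −0.0598 and −0.0609, with log2(FPKM + 1) and log2(FPKM + 0.1). With single libraries left out, Nes ranged from −0.0815 to 0.0637 over the first interval, −0.0913 to 0.0732 over the second and −0.1133 to 0.0576 over the whole span, Msi2 from −0.079 to 0.1377 and Fut4 from −0.1459 to 0.1008 over the first, and Vim from −0.1761 to 0.0635 and Lrp2 from −0.5202 to 0.2438 over the second. The second change minus the first ranged from −0.0927 to 0.0912 for Nes, −0.0292 to 0.1848 for Msi2 and −0.0189 to 1.2762 for Lrp2. Within replicate 1 the log2 fold change of Nes was 0.07, 0.11 and 0.18 over the first interval, the second interval and the whole span. Within replicates 2 and 3 it was −0.05, −0.11 and −0.16. Over the first interval Msi2 was at 0.06 within replicate 1 and −0.02 within replicates 2 and 3, and Fut4 at −0.06 and 0.02. With 22 to 72 counts per library, Fut4 has the least depth of the 8 genes.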
